A study of Mus musculus with 12 samples.

Results

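Osteoclast differentiation and fusion genes were examined in macrophages that had been grown with or without activin A. The group was chosen by name and comprised 9 genes: *Tnfrsf11a*, *Nfatc1*, *Oscar*, *Dcstamp*, *Ocstamp*, *Atp6v0d2*, *Acp5*, *Ctsk*, and *Calcr*. Of these, 8 were among the 18376 genes listed and 6 were among the 14318 that were tested, which were those with a mean of 5 or more. *Calcr*, the calcitonin receptor, was not listed, and the smallest row maximum in the table was 3.

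The cells were bone marrow-derived macrophages (BMDMs), generated from bone marrow progenitors of adult wild type (WT) C57BL6/J mice with 50 ng/ml M-CSF, a growth factor that all 4 groups received. Over 6 days, the Act group had activin A at 50 ng/ml, the FST group had FST288 at 250 ng/ml, the Act+FST group had both at these doses, and the CTRL group had neither. Each group had 3 libraries, 12 in all. Activin A is a cytokine of the TGF-β family, and FST288 is a form of its binding protein and antagonist follistatin. The values are normalized counts, that is, gene counts that were rescaled per library and rounded to whole numbers, and their totals ran from 5643708 to 5955400. RANK ligand was not among the agents added, and osteoclast formation was not measured here. No source states that the 3 replicates came from separate mice or cultures, and p-values measure only the spread between libraries, which may be technical.

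Osteoclasts are bone-resorbing cells of the macrophage lineage. M-CSF keeps their precursors alive and RANK ligand, acting through its receptor RANK, induces the transcription factor NFATc1. NFATc1 then drives genes for cell fusion, which gives the multinucleated cell, and for the enzymes and proton pumps that dissolve bone. Activin A is known to act on both macrophages and osteoclast precursors.

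Activin A did not move these genes in 1 direction. *Ctsk*, which encodes the collagen-degrading protease cathepsin K, fell 3.11-fold in Act against CTRL, and *Atp6v0d2*, which encodes a proton pump subunit needed for fusion, fell 2.06-fold. *Acp5*, which encodes the tartrate-resistant acid phosphatase TRAP used as a stain for osteoclasts, rose 2.26-fold. *Dcstamp*, the gene of a membrane protein of cell fusion, was lower in each Act library than in each CTRL library, and its difference passed the test when libraries were paired by replicate number but not in the model of all 12 libraries without the pairing. *Nfatc1* and *Tnfrsf11a* were 1.10-fold and 1.09-fold higher in Act, and neither passed in that model.

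**Figure D1:**
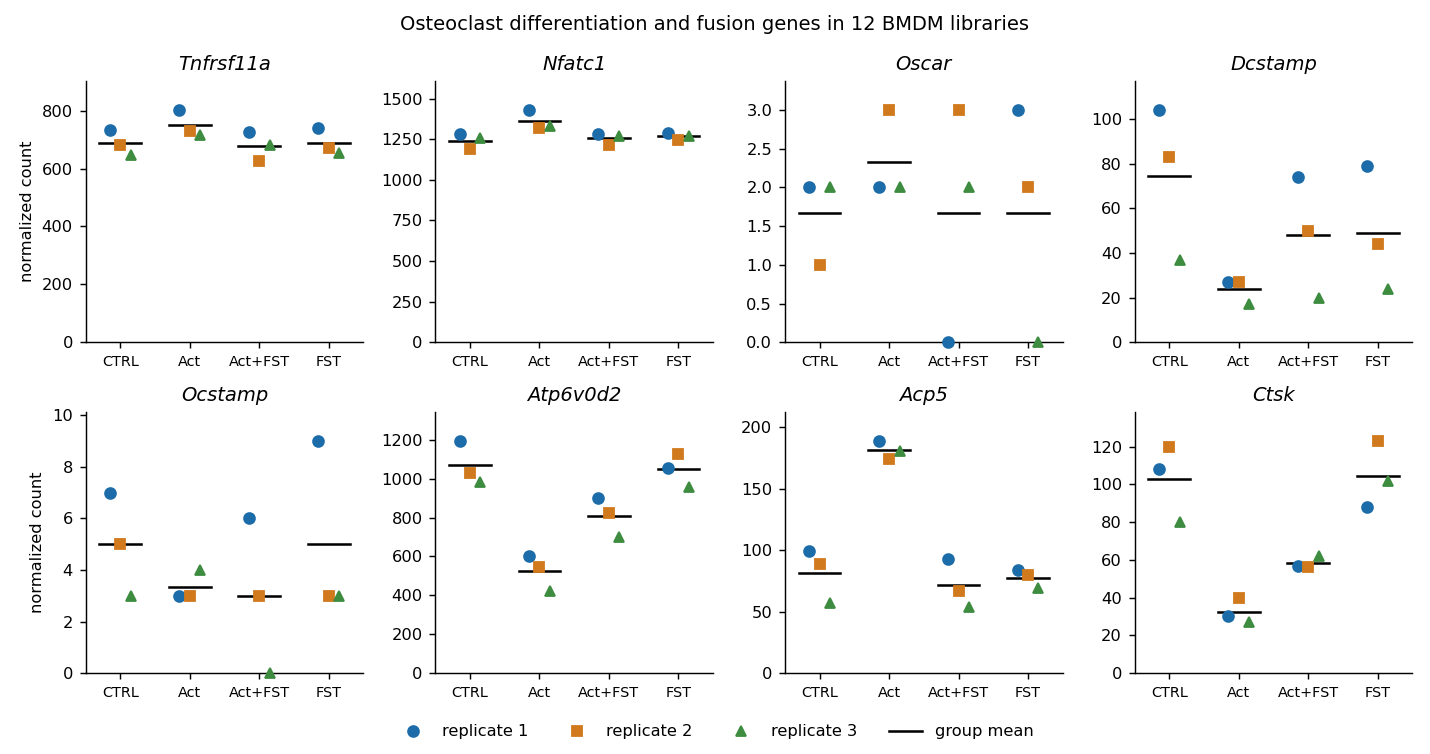
Normalized counts (vertical axes, each from 0 with its own scale) of the 8 listed genes in the 12 libraries, by group. Each symbol is 1 library, its shape and color give the replicate number, and the black lines are group means. Act stands above the other groups for *Acp5* (174 to 189) and below them for *Ctsk* (27 to 40) and *Atp6v0d2* (422 to 601).

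The levels of the genes differed widely when set per length of exon, in normalized counts per exonic kilobase over all 12 libraries. *Atp6v0d2* had the highest level with 317, followed by *Nfatc1* with 172 and *Tnfrsf11a* with 117, and the median of all tested genes was 61.9. *Acp5* with 50.7 and *Ctsk* with 49.2 lay just under that median. *Dcstamp* followed with 18.3, and *Ocstamp* with 1.12 and *Oscar* with 0.993 had the lowest levels. The pump subunit *Atp6v0d2* and the receptor *Tnfrsf11a* were thus readily measured in M-CSF macrophages, and *Ocstamp* and *Oscar* were not. For *Acp5* and *Ctsk* the pooled levels hide a difference between groups. *Acp5* was at 40.2 in CTRL and 89.3 in Act, and *Ctsk* at 67.9 in CTRL and 21.4 in Act.

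**Figure D2:**
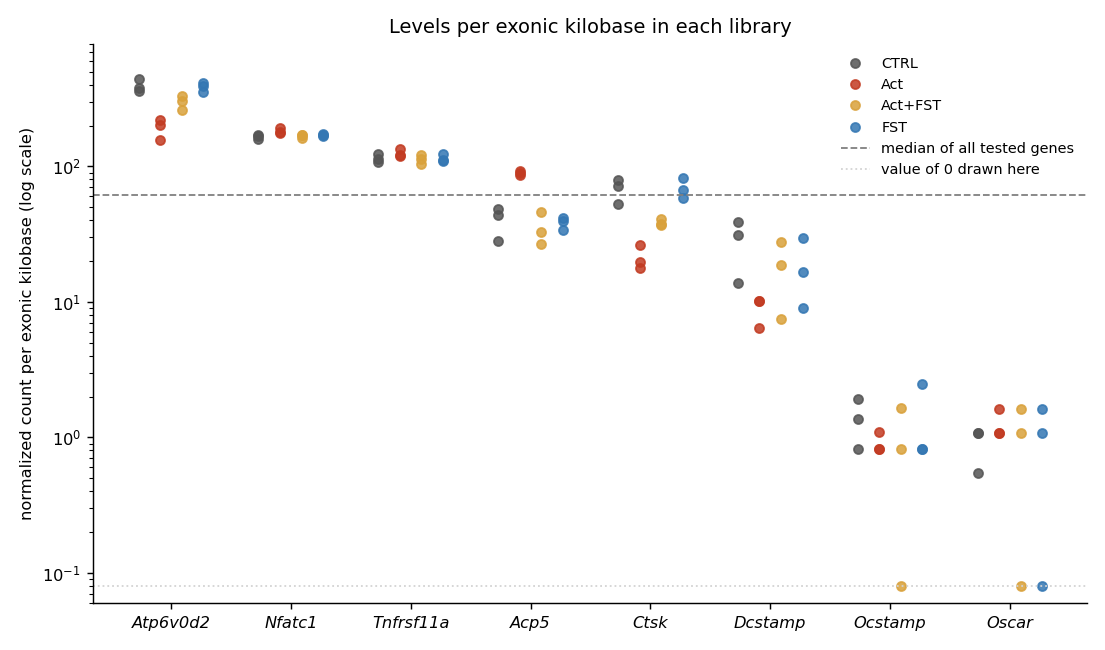
Normalized counts per exonic kilobase (log scale) of each listed gene in each of the 12 libraries, colored by group. The dashed line is the median of all tested genes (61.9), and values of 0 are drawn on the dotted line. By group means, the order of the genes in Act differs from that in CTRL where *Acp5* and *Ctsk* cross. *Ocstamp* and *Oscar*, both near the floor, cross too.

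*Tnfrsf11a* encodes RANK, the receptor of RANK ligand, and lies at chr1:105780718-105847981 on the plus strand (GRCm38). In replicates 1, 2, and 3, its normalized counts were 734, 680, and 647 for CTRL, 802, 728, and 717 for Act, 725, 625, and 683 for Act+FST, and 741, 671, and 652 for FST. The same order of groups and replicates is kept for the genes that follow. Act was higher than CTRL within each of the 3 replicate numbers, although the ranges of the groups overlapped. Across replicates, Act minus CTRL was 0.12 on the log2 scale (SE 0.07, limma adjusted p = 0.253), with a 95% interval from -0.03 to 0.28. With the replicate number as a block, the same difference had an adjusted p of 0.0253.

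*Nfatc1*, the gene of the transcription factor that leads osteoclast differentiation, lies on the minus strand of chromosome 18. It measured 1280, 1188, and 1255 for CTRL, 1430, 1322, and 1329 for Act, 1283, 1215, and 1273 for Act+FST, and 1286, 1248, and 1269 for FST. The lowest Act library was above the highest library of any other group. The step was small, at 0.13 on the log2 scale for Act minus CTRL (SE 0.04, limma adjusted p = 0.0519), and 1.10-fold. The block gave an adjusted p of 0.00557. Neither the receptor nor the transcription factor fell along with *Ctsk* and *Atp6v0d2*.

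*Oscar* encodes a costimulatory receptor that signals through an immunoreceptor adaptor and raises calcium during osteoclast formation. It held between 0 and 3 normalized counts in every library, with a mean of 2.33 for Act and of 1.67 for each of the other groups. At this depth no difference was detectable, and no fold change is given.

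Among the fusion genes, *Dcstamp* (chr15:39745930-39760938, plus strand) encodes DC-STAMP, a membrane protein required for osteoclasts and macrophage giant cells to fuse. Its normalized counts were 104, 83, and 37 for CTRL, 27, 27, and 17 for Act, 74, 50, and 20 for Act+FST, and 79, 44, and 24 for FST. All 3 Act libraries were below all 3 CTRL libraries. Within each group, replicate 1 was at the top or level with it and replicate 3 was the lowest, so that the spread within CTRL, Act+FST, and FST was wide. Act minus CTRL was -1.52 on the log2 scale (SE 0.52, limma adjusted p = 0.0562). With the replicate block the SE was 0.21 and the adjusted p was 6.93e-05, with only the CTRL and Act libraries fitted it was 0.0232, and over all alternatives it reached 0.304. Pair by pair, the log2 difference was -1.91, -1.58, and -1.08.

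The collagen genes *Col1a1* and *Col1a2*, which mark stromal cells, were also highest in the libraries with replicate number 1. *Col1a1* measured 22 to 83 in these 4 libraries and 2 to 8 in the other libraries. *Dcstamp* also had its highest value there in CTRL, Act+FST, and FST. In Act it measured 27 in replicates 1 and 2, where *Col1a1* was 83 and 8, and between replicates 2 and 3 of CTRL it went from 83 to 37, where *Col1a1* was 3 in both. Whether stromal cells had a part in the *Dcstamp* values was not tested. Without replicate number 1 in every group, Act minus CTRL for *Dcstamp* was -1.33 on the log2 scale (adjusted p = 0.118). Without number 2 in every group the gene did not pass either, whereas without number 3 it passed.

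*Ocstamp* (chr2:165393760-165400405, minus strand) encodes OC-STAMP, a related fusion protein of osteoclasts. It had 7, 5, and 3 normalized counts for CTRL, 3, 3, and 4 for Act, 6, 3, and 0 for Act+FST, and 9, 3, and 3 for FST. The groups overlapped, the mean over 12 libraries was 4.08, and the gene was not tested.

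*Atp6v0d2* (chr4:19876841-19922605, minus strand) encodes the d2 subunit of the vacuolar proton pump, which acidifies the space under the osteoclast and takes part in fusion. It measured 1194, 1030, and 984 for CTRL, 601, 548, and 422 for Act, 898, 822, and 702 for Act+FST, and 1055, 1129, and 957 for FST. Act lay below every other group, and Act+FST lay between Act and both groups without activin A, with no overlap at either side. Act minus CTRL was -1.04 on the log2 scale (SE 0.13, limma adjusted p = 0.000105), and it fell in 3 of 3 replicate pairs. The related subunit gene *Atp6v0d1*, which many cell types use, is among the acid secretion genes described further on.

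The resorption enzymes went in opposite directions. *Acp5* (chr9:22126727-22135711, minus strand) measured 99, 89, and 57 normalized counts for CTRL, 189, 174, and 181 for Act, 93, 67, and 54 for Act+FST, and 84, 80, and 69 for FST. Every Act library was above every library of the other groups, whose ranges overlapped each other. Act minus CTRL was 1.18 on the log2 scale (SE 0.21, limma adjusted p = 0.00177). Of its exonic bases, 137 (6.75%) overlap the gene *6530413G14Rik* on the other strand. The authors did not count reads that lay on more than 1 gene, and the strand setting of the counting is not given in the sources used here.

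*Ctsk* (chr3:95499256-95509362, plus strand) measured 108, 120, and 80 for CTRL, 30, 40, and 27 for Act, 57, 56, and 62 for Act+FST, and 88, 123, and 102 for FST. The Act libraries were the lowest, the Act+FST libraries came next, and neither overlapped CTRL or FST. Act minus CTRL was -1.64 on the log2 scale (SE 0.19, limma adjusted p = 6.7e-05).

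The opposite moves of *Acp5* and *Ctsk* were looked at together after their values had been seen, as a description. Per exonic kilobase, the ratio of *Acp5* to *Ctsk* was 0.683, 0.552, and 0.531 for CTRL and 4.69, 3.24, and 4.99 for Act. It was 1.22, 0.891, and 0.649 for Act+FST and 0.711, 0.484, and 0.504 for FST. On this scale *Ctsk* was thus the higher of the pair in each CTRL and FST library, and *Acp5* in each Act library. The lengths join all annotated exons of a gene, so the order could differ with the length of the transcript expressed. The change of the ratio between groups does not depend on these lengths.

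**Figure D3:**
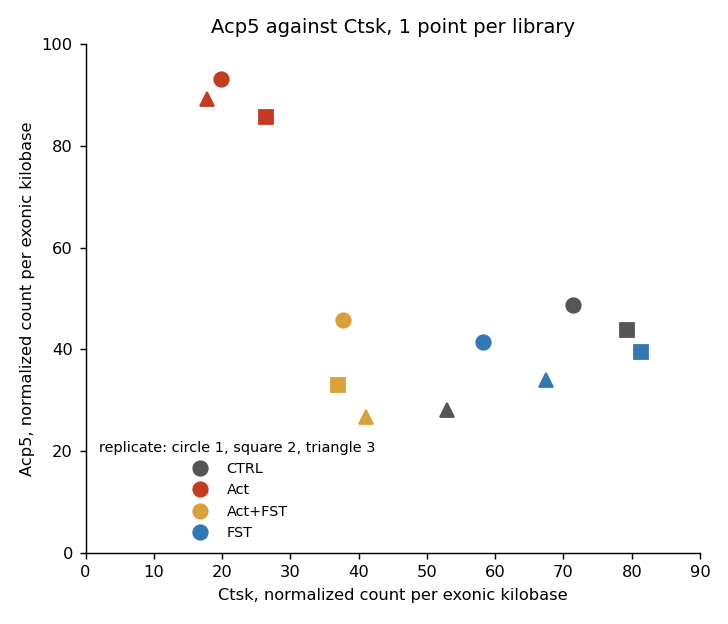
*Acp5* (vertical axis) against *Ctsk* (horizontal axis) in normalized counts per exonic kilobase, 1 point per library, colored by group and shaped by replicate number. The 3 Act libraries stand apart at the upper left, with *Acp5* between 85.7 and 93.1 and *Ctsk* between 17.9 and 26.5.

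Promoter windows of 250 bases before to 50 bases after a gene start were taken from RefSeq (GRCm38.p6), which gave 8 windows for 5 of the 9 genes. The windows of *Ctsk* and *Acp5* are shown because the transcripts of these enzymes changed most clearly in opposite directions. For *Acp5*, 3 starts were listed, and the one printed is that whose first 50 transcribed bases are part of a GENCODE transcript. The RefSeq start of *Ctsk*, base 95499210, lies upstream of the gene start in GENCODE. Sequences run 5′ to 3′ along the gene, and capitals mark letters that belong to any match of the motifs named next.
*Ctsk*, chr3:95498960-95499259, plus strand: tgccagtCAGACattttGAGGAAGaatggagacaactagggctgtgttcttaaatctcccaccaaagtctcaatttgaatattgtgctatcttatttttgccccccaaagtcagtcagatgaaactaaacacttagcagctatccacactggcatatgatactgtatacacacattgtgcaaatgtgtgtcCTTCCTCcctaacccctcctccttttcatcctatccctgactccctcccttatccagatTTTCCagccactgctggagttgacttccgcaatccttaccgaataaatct
*Acp5*, start 3 of 3, chr9:22130549-22130848, minus strand: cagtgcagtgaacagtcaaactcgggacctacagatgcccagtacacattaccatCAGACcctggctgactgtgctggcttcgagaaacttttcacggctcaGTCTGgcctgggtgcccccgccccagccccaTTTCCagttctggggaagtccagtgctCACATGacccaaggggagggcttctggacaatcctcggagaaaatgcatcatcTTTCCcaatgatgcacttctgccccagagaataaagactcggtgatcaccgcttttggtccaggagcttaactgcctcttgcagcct

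Motifs were searched on both strands as CAGAC (the SMAD box, SMAD proteins being the effectors of activin receptors), GGAAA (the NFAT core), GAGGAAG (a PU.1 core), TGANTCA (AP-1), and CANGTG (the E-box of MITF and related factors). The share of all 32851 windows of this length that held a match was 49.6% for CAGAC, 61.3% for GGAAA, 13.6% for GAGGAAG, 7.81% for TGANTCA, and 44.9% for CANGTG. In the *Ctsk* window there was 1 match of CAGAC, 1 of GGAAA, and 2 of GAGGAAG. The *Acp5* window held 2 matches of CAGAC, 2 of GGAAA, and 1 of CANGTG. In neither window did matches of different motifs overlap, and TGANTCA was in neither. A match is a stretch of letters, and binding was not measured.

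Set over all 6 tested genes, 1 rose and 2 fell in Act against CTRL, and the same 3 were DEGs, that is, changed at least 2-fold with an adjusted p of at most 0.05. Over all 14318 genes, 10.3% passed as higher and 9.97% as lower, and 2.58% and 3.09% were DEGs in these directions. With the replicate block, all 6 passed, 3 as higher and 3 as lower, where 16.3% and 15.2% of all genes passed. The median difference of the 6 genes was -0.46 on the log2 scale, and that of all genes was 0.0036. As the 6 genes went in both directions, their median is the midpoint of *Atp6v0d2* (-1.04) and *Tnfrsf11a* (0.12). It describes no single gene. The 3 genes that passed did so in each of the 12 fits that left out 1 library. For *Ctsk*, these fits gave -1.80 to -1.51, for *Atp6v0d2* -1.15 to -0.89, and for *Acp5* 0.94 to 1.33.

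The comparison of Act with Act+FST asked what FST288 did in the presence of activin A. It shares the Act libraries with the comparison above, so the pair of results is not independent. *Acp5* was 2.58-fold higher in Act (1.37 on the log2 scale, SE 0.21, limma adjusted p = 0.000625), *Ctsk* was 1.80-fold lower (-0.85, SE 0.19, adjusted p = 0.00601), and *Atp6v0d2* was 1.55-fold lower (-0.63, SE 0.13, adjusted p = 0.00333). Hence 1 gene passed as higher and 2 as lower, against 11.1% and 10.2% of all genes, and *Acp5* was the only DEG, against 2.72% and 3.11%. *Dcstamp* differed by -0.84 with a 95% interval from -1.96 to 0.28 (adjusted p = 0.294). With the block all 6 genes passed, 3 in each direction, where 17.1% and 15.4% of all genes did, and *Dcstamp* had an adjusted p of 0.0066, *Tnfrsf11a* 0.0106, and *Nfatc1* 0.0132. Without replicate number 2 in every group, *Atp6v0d2* did not pass (adjusted p = 0.0611), and without replicate number 3, *Ctsk* did not (adjusted p = 0.0829).

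**Figure D4:**
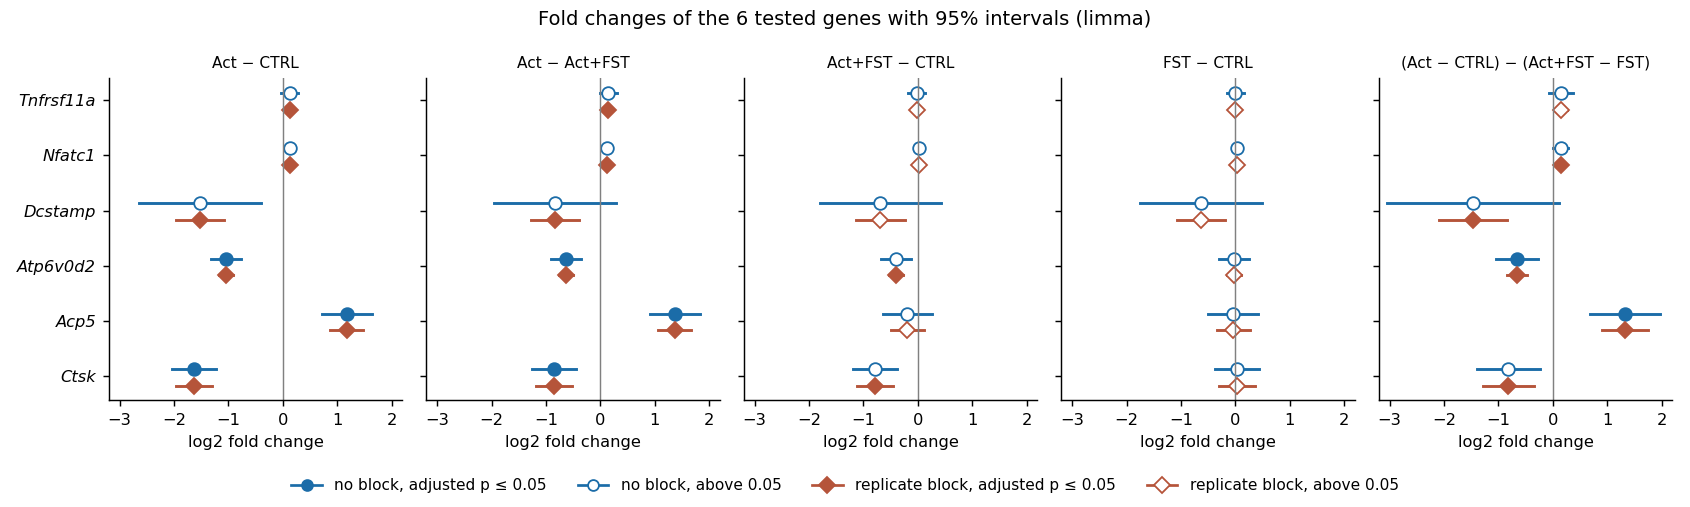
Differences of the 6 tested genes on the log2 scale (horizontal axes) with 95% intervals as bars, from limma without a block (circles) and with the replicate number as a block (diamonds), 1 panel per comparison. Filled symbols have an adjusted p of at most 0.05. *Acp5* stands at 1.18 and *Ctsk* at -1.64 in Act minus CTRL, and the block narrows the interval of *Dcstamp* most.

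Act+FST against CTRL showed what was left of the activin A response under FST288. *Acp5* was at 71.3 ± 19.9 normalized counts (SD, n = 3) in Act+FST and 81.7 ± 21.9 in CTRL, a difference of -0.19 on the log2 scale with a 95% interval from -0.65 to 0.27. *Ctsk* was at 58.3 ± 3.21 in Act+FST and 103 ± 20.5 in CTRL, 1.73-fold lower, and *Atp6v0d2* was 1.33-fold lower. Their ranges did not overlap, which is an exact permutation p of 0.1, the lowest for 3 against 3 libraries. Neither passed in the model without the block (limma adjusted p = 0.574 for *Ctsk* and 0.756 for *Atp6v0d2*), where none of the 6 genes and 0.0% of all genes passed in either direction. The unadjusted p was under 0.05 for 2 of the 6 genes and for 4.57% of all genes. With the block, *Ctsk* (-0.79, adjusted p = 0.0468) and *Atp6v0d2* (-0.41, adjusted p = 0.0167) passed as lower, as did 0.279% of all genes, and 0.279% passed as higher. In terms of the log2 difference, 48.1% of the fall of *Ctsk* and 39.2% of that of *Atp6v0d2* were still there with FST288. For *Dcstamp* this share was 45.1%. Its difference was -0.69, lower in 3 of 3 pairs, with a 95% interval from -1.81 to 0.43, and from -1.13 to -0.24 with the block (adjusted p = 0.191). FST alone differed from CTRL about as much for this gene, as given next.

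FST alone differed little from CTRL in the means of 5 of the 6 genes. None of the 6 passed in limma with or without the block, and 0.0% of all genes passed in either direction in the model without it. The unadjusted p was under 0.05 for 0 of the 6 genes and 2.09% of all genes without the block, and with it for *Dcstamp* alone and 4.89% of all genes. The differences ran from -0.04 for *Acp5* to 0.03 for *Nfatc1*, with *Dcstamp* outside this range at -0.63 and a 95% interval from -1.75 to 0.49. *Dcstamp* was lower in FST in 3 of 3 replicate pairs, and with the block its interval was -1.08 to -0.19 (adjusted p = 0.836). The difference between Act+FST and FST, which both had FST288, was not tested on its own. *Ctsk* and *Atp6v0d2* were lower with activin A in 3 of 3 replicate pairs, at -0.82 and -0.38 on the log2 scale. *Acp5* was at -0.15, *Dcstamp* at -0.05, *Tnfrsf11a* at -0.02, and *Nfatc1* at -0.01, each lower in 2 of 3 pairs.

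Whether the response to activin A differed without and with FST288 was tested as (Act minus CTRL) minus (Act+FST minus FST). It did for *Acp5* (1.33 on the log2 scale, SE 0.30, limma adjusted p = 0.0189) and for *Atp6v0d2* (-0.66, adjusted p = 0.0448), against 3.99% of all genes passing as higher and 2.75% as lower. *Atp6v0d2* missed the threshold in 10 of the 12 fits that left out 1 library. *Acp5* passed in each of these, but missed it without replicate number 2 in every group (adjusted p = 0.202) or without number 3 (0.0822). For *Ctsk* the value was -0.82 with an adjusted p of 0.0897. With the block, 5 of the 6 genes passed, 2 as higher and 3 as lower, against 9.36% and 6.96% of all genes. Those added were *Ctsk* (adjusted p = 0.0195), *Dcstamp* (-1.47, adjusted p = 0.00348), and *Nfatc1* (0.14, adjusted p = 0.041).

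The other genes of the osteoclast pathway were grouped in 8 lists with 115 different genes, of which 110 were listed and 108 tested. In Act against CTRL, 27 rose, 14 fell, and 67 did not pass, beside 10.3% and 9.97% of all genes as higher and lower. Without Act replicate 3, 27 genes passed in all. With the block, 35 rose and 23 fell, beside 16.3% and 15.2% of all genes. The same shares stand beside each block count of a list given below. The median over the lists was -0.0031 on the log2 scale, and the lists were chosen with earlier results known.

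Upstream, RANK ligand (*Tnfsf11*) and its decoy osteoprotegerin (*Tnfrsf11b*) were not listed. Of the 13 tested genes of the RANK adaptor list, 8 rose and none fell, with a median of 0.19, and 5 passed without CTRL replicate 2 or without Act replicate 3. Without replicate number 2 or 3 in every group, 3 and 2 passed. *Traf3*, an adaptor that restrains noncanonical NF-κB signalling, rose by 0.49 (limma adjusted p = 0.000864), *Relb*, a subunit of noncanonical NF-κB, by 0.31, and *Traf2* by 0.26. *Traf6*, the main adaptor of RANK, was at 0.03 (adjusted p = 0.721).

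In the costimulatory and calcium list, 3 of 16 genes rose and 1 fell, and 5 passed with the block. Without replicate number 2 or 3 in every group, 2 passed. *Pira2*, a paired immunoglobulin-like receptor, fell by 0.59, and the calcium signalling genes *Itpr2* and *Plcg2* rose by 0.42 and 0.36. *Sirpb1a*, singled out after its values were seen as the 1 DEG of this list, rose by 1.17 (limma adjusted p = 0.00782). It and *Pira2* belong to families of similar genes, and their values are uncertain because reads that fit more than 1 copy were not counted. The adaptor chain of *Oscar*, FcRγ (*Fcer1g*), was at -0.05 (limma adjusted p = 0.62), with at least 449 normalized counts in every library, where *Oscar* was near 0. Another adaptor, *Tyrobp*, was at -0.07 (limma adjusted p = 0.465) and its receptor partner *Trem2* at -0.01 (adjusted p = 0.844), both with at least 466 normalized counts in every library.

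Of 15 transcription factors that promote osteoclast differentiation, 7 rose and 2 fell, with a median of 0.21, and 5 passed without Act replicate 3. Without replicate number 2 in every group 1 passed, without number 3 this count was 4, and with the block it was 11. *Fosl2*, an AP-1 member, rose by 0.82 and *Prdm1*, the gene of the repressor Blimp-1, by 0.54, while *Myc* fell by 0.86. *Mitf*, which binds promoters of osteoclast enzymes, rose by 0.22 (limma adjusted p = 0.0453), and *Spi1*, the gene of PU.1, was at 0.07 (adjusted p = 0.336). Of 13 repressors and inhibitors, 3 rose and 1 fell. *Bcl6*, the gene of a transcriptional repressor, rose by 0.45 and the phosphatase gene *Inpp5d* by 0.27, while *Irf8* was at 0.06 (adjusted p = 0.39). With the block, 9 of these 13 passed, 7 of them as higher, and without replicate number 3 in every group, 2 passed.

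Among 15 other fusion genes, 2 rose and 3 fell, and 3 passed when CTRL replicate 2 or 3 or Act replicate 1 or 3 was left out. With the block 6 passed, and without replicate number 2 or 3 in every group, 2 and 3 did. *Cd200r1*, the receptor of CD200, fell by 0.65 (limma adjusted p = 9.26e-07), the tetraspanin gene *Tspan13* fell by 0.36, and *Snx10*, a sorting nexin needed for resorption, rose by 0.33. *Tspan10*, singled out after its values were seen as the 1 DEG of this list, fell by 1.18 (adjusted p = 0.0481). It had at most 17 normalized counts in any library, with means of 14.7 for CTRL and 6.33 for Act. Act+FST with 7.67 and FST alone with 9.0 were below CTRL too, so its low values were not particular to activin A.

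Of 12 attachment genes, 3 rose and 2 fell, with values from -2.66 to 1.37. With the block 7 passed, and without replicate number 3 in every group, 3 did. *Itgb3*, the β3 integrin subunit through which osteoclasts bind bone, measured 367, 343, and 379 normalized counts for CTRL and 57, 85, and 37 for Act. It fell 6.33-fold (-2.66 on the log2 scale, SE 0.24, limma adjusted p = 1.03e-05). Its partner *Itgav* rose by 0.95 and the kinase gene *Src*, which acts behind the integrin, rose by 1.37.

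In the acid secretion list, only *Atp6v1a*, a subunit of the pump's cytosolic part, passed of 17 tested genes, at -0.20 (limma adjusted p = 0.0114), and the list median was -0.10. Without Act replicate 3, 0 passed, and leaving out Act replicate 1, Act+FST replicate 1, or FST replicate 2 gave 2. At an unadjusted p under 0.05 there were 5 of the 17, and 32.2% of all genes. *Clcn7*, the chloride exchanger, was at -0.05 (adjusted p = 0.505), *Tcirg1*, the a3 pump subunit, at -0.10 (adjusted p = 0.313), and *Car2*, carbonic anhydrase II, had at most 14 normalized counts in any library. *Atp6v0d1* was at -0.07 (adjusted p = 0.341), against -1.04 for *Atp6v0d2*. With the block, 7 of the 17 passed, all as lower, where 15.2% of all genes passed as lower. The widest difference in the list was -1.21 for *Slc9b2*, a sodium-proton exchanger gene with at most 21 normalized counts in any library, singled out after its values were seen (limma adjusted p = 0.0538, and 0.0106 with the block).

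Of 8 other secreted or lysosomal enzymes, 1 rose and 4 fell, and 3 passed without CTRL replicate 1, Act replicate 2, or Act replicate 3, and without replicate number 2 or 3 in every group. *Mmp14*, a membrane metalloproteinase, rose 5.46-fold, and *Mmp12*, the macrophage elastase, and *Hyal1*, a lysosomal hyaluronidase, fell 2.56-fold and 2.19-fold. *Mmp9* was at -0.51 (limma adjusted p = 0.494), and its replicates differed from 111 to 249 normalized counts within Act.

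**Figure D5:**
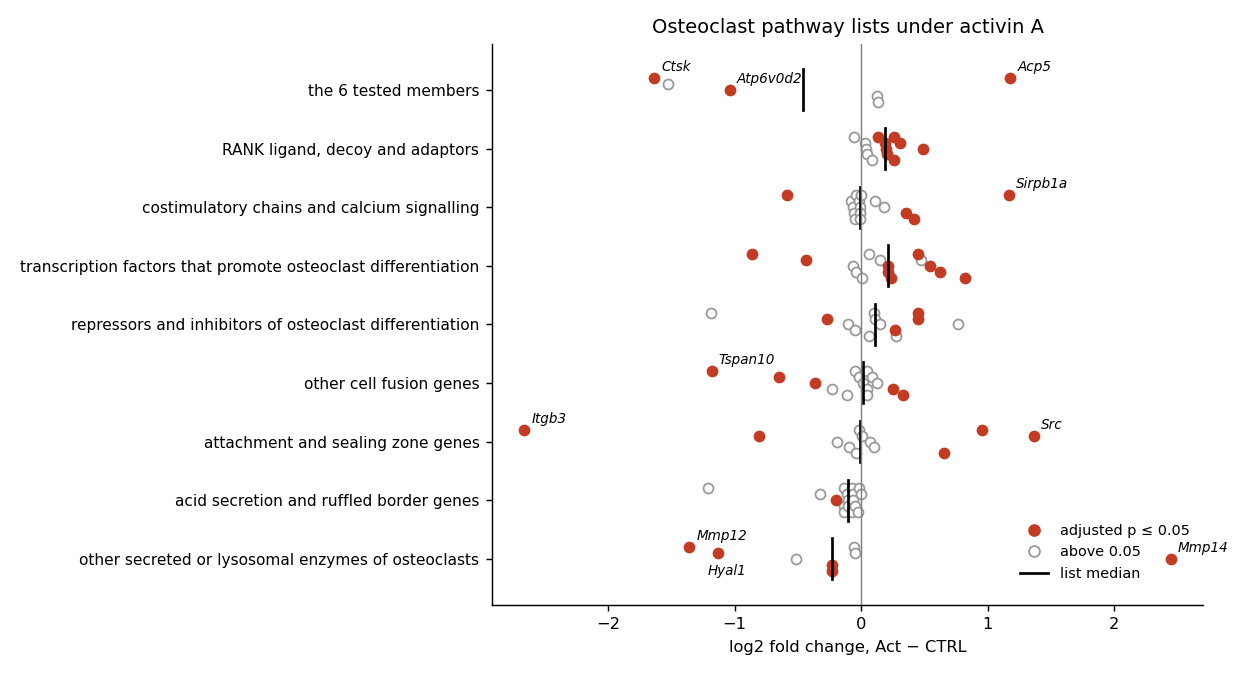
Act minus CTRL on the log2 scale (horizontal axis) for the 6 tested genes and for the genes of the 8 other osteoclast lists, 1 point per gene. Filled points have an adjusted p of at most 0.05, black bars are list medians, and genes that passed with at least 2-fold are named. The RANK adaptor list sits to the right of 0 (median 0.19) and the acid secretion genes have a median of -0.10.

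The genes with the pattern most like each member across the 12 libraries were found by Pearson's r among 10633 other genes with a mean of at least 50. All such values share the same 4 groups and are given as a description. *Acp5* was most like *Tmcc1* (r = 0.987) and *Ltbp3* (0.985), *Ctsk* like *Ak8* (0.971) and *St3gal5* (0.955), and *Atp6v0d2* like *Megf9* (0.983) and *Mmp12* (0.981). *Nfatc1* was most like *Eogt* (0.963) and *R3hdm1* (0.956), and *Tnfrsf11a* like *Nudcd1* (0.955) and *Nup98* (0.947). *Mmp12* is the 1 gene among these that is also in a pathway list.

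Markers of the cell types these cultures could hold were compared between Act and CTRL. The 8 macrophage markers were abundant, with sums from 13065 to 14475 normalized counts per library, and none passed in limma (0 at an unadjusted p under 0.05). The largest mean of any gene was 0.883 normalized counts per exonic base. In CTRL, *Lyz2* was near this value with 882 normalized counts per exonic kilobase and *Cd68* with 864, while *Tyrobp*, named above, had 767. If reads with a shared start were counted once, changes of such genes would be understated. In bulk RNA, fewer cells of a type and less RNA per cell cannot be told apart. Other markers moved with activin A, and those named here were singled out after their values were seen. Of 5 monocyte markers, 2 rose, *Cx3cr1* by 3.41 and *Ccr2* by 1.04, and their list sum was 3491 to 3573 in Act against 754 to 1617 in CTRL. Of 8 granulocyte markers, 2 fell, *Mpo* by 2.01 and *Elane* by 1.64, with list sums of 691 to 1107 in Act and 866 to 1211 in CTRL. With the block, *Prtn3* of the granulocyte list also passed as lower, as did 1 of the 5 monocyte markers.

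Of 5 tested stromal markers *Runx2* alone passed, with a rise of 1.12, and *Lum*, *Sp7*, *Bglap*, and *Alpl* were not listed. With the block, *Col1a2* and *Pdgfrb* also passed as higher. The stromal list sum, in which *Runx2* had the largest part, was 390 to 682 in Act and 189 to 266 in CTRL. Of 8 tested dendritic cell markers, *Cd209a* fell by 2.27, whereas the list median was 0.28, and list sums were 604 to 620 in Act and 584 to 822 in CTRL. With the block 5 passed, with *Flt3*, *Dpp4*, and *Siglech* higher and *Itgax* lower beside *Cd209a*. *Cd4*, 1 of 3 tested lymphocyte markers, fell by 0.57, with sums, nearly all of them *Cd4* itself, of 402 to 516 in Act and 629 to 717 in CTRL, while *Cd3e*, *Cd3g*, and *Cd8a* were not listed. *Kit*, the 1 tested mast cell marker, fell by 1.23, with sums of 13 to 39 in Act and 37 to 70 in CTRL. The part of these cells in the changes of *Acp5*, *Ctsk*, and *Atp6v0d2* was not tested.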

How the data were processed

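Gene expression was measured in 12 BMDM libraries made with a stranded mRNA kit and sequenced as single-end reads. Per the submitters' processing notes and methods, reads were trimmed (Trimmomatic 0.39), aligned to mm10 (STAR 2.7.9a), and assigned to genes (featureCounts 2.0.2) if they had 1 position and 1 gene. The deposited signal is a gene count that the authors rescaled per library and rounded. The scaling formula and the strand setting are not given in the sources used here. Whole reads could not be recovered after rounding, so no count test was run and the original depth is unknown.

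Values were tested as log2(value + 1), which understates the change of low genes, with limma 3.58.1 (R 4.3.3), using empirical Bayes with a mean trend. A single model with 4 group means was fitted to the 14318 genes whose mean reached 5, and two-sided p-values were adjusted after Benjamini and Hochberg over all of them. The script was tested on simulated data. An exact permutation test of 3 against 3 libraries cannot go below p = 0.1 and made no calls.

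Replicate numbers come from the labels. Deviations from group means correlated in each of 18 pairs with the same number (r from 0.157 to 0.481, mean 0.312). The mean of -0.156 in 36 pairs with different numbers adds no separate evidence, because deviations cancel out within each group. From the pairs with the same number, the numbers were taken to pair the libraries. The block is given where it changes a call of the 6 genes or the count of a pathway list. Coordinates and exon lengths are from GENCODE M21 (GRCm38), which held 18359 of the identifiers and lacked 17. The genes and lists were chosen with earlier results of these data known. Named from each list are up to 3 genes that passed with a mean of at least 50 and the largest differences, and a fixed set of further genes, of which 1 is not reported here. For each member with a mean of at least 50, the 2 most similar genes are named. Alternatives were pseudocounts of 0.5 and 5, no filter, a mean of at least 50, quantile normalization, median-of-ratios rescaling, only the groups compared, the block, a 2-fold threshold, no trend, and each library left out. Leaving out a replicate number in every group, and correcting for reads with a shared start, were added after the data were seen.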

Additional observations from a re-analysis of the deposited data

Results flagged for a closer look

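The response of 2 of the 6 tested genes to activin A differed without and with FST288, by the test of the difference itself. Over all genes, 3.99% passed this test as higher and 2.75% as lower. For *Acp5*, the response without FST288 minus that with it was 1.33 on the log2 scale, as the rise in Act over CTRL had no counterpart in Act+FST over FST. For *Atp6v0d2* it was -0.66, as the fall was larger without FST288. The value for *Atp6v0d2* missed the threshold in 10 of the 12 fits that left out 1 library. That for *Acp5* passed in all 12, but missed it without replicate number 2 or 3 in every group. The cause of either difference was not tested.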

How the results depend on the processing

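The number of the 6 genes that passed was 3 in Act against CTRL and 3 in Act against Act+FST. With the replicate block it was 6 in each of these, 2 in place of 0 in Act+FST against CTRL, 5 in place of 2 for the difference in response with and without FST288, 58 in place of 41 over the 8 other lists, and 0 as before in FST against CTRL. The block changed no other call of these genes. Of all genes in Act against CTRL, 16.3% passed as higher and 15.2% as lower with the block, and 10.3% and 9.97% without it. Under the 2-fold threshold, 1 gene passed in Act against Act+FST and 1 for the difference in response, and 7 genes passed over the 8 other lists in Act against CTRL. Without the trend, 1 gene passed for the difference in response. Leaving out 1 library, or 1 replicate number in every group, gave 3 to 4 genes in Act against CTRL, 2 to 3 in Act against Act+FST, 0 to 2 for the difference in response, 0 in the other comparisons, and 19 to 42 over the lists. The 19 came without replicate number 2 or 3 in every group, and without Act replicate 3 the lists held 27. The cause was not tested, other than that these fits have fewer samples. Among the differences of single genes, no called value changed sign under any alternative. With quantile normalization, or a mean of at least 50, *Nfatc1* also passed in Act against CTRL (adjusted p = 0.0468 and 0.0467). *Nfatc1* passed in 1 of the 12 fits without 1 library (0.0444, without CTRL replicate 1). *Dcstamp* passed in 5 of these (lowest 0.0261), namely without CTRL replicate 3, Act+FST replicate 1 or 3, or FST replicate 1 or 3. Of the fits without a replicate number in every group, *Dcstamp* passed only in that without number 3. The low values of *Oscar* and *Ocstamp* limit what could be seen for them.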
